A study of Mus musculus with 14 samples.

Results

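In mouse embryonic stem cells (ESCs), 3133 chromatin loops were listed both before and after depletion of CTCF and were in neither list of the neural precursor cells (NPCs) derived from them. They were chosen by their calls alone: a loop is a pair of 10 kb bins, and it was taken when the same pair stood in both ESC lists of the loop caller MAPS and in neither NPC list. They were 3133 of the 137221 distinct bin pairs of the 4 lists. The ESC control list held 56714 loops, of which 12979 (22.9%) were listed again after auxin. Of these kept loops 24.1% were in neither NPC list, against 52.5% of the 43735 ESC control loops that were not listed after auxin. These counts are the rule itself and were not tested.

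The assay was PLAC-seq for H3K4me3, which joins DNA ends that lie close together in the nucleus and then pulls down fragments carrying this histone mark. The cells were F123, a mouse ESC line, in which CTCF carries an auxin-inducible degron (CTCF-AID), so that the hormone auxin triggers loss of the protein. All 4 groups carried the degron: ESCs without auxin (0 h, the ESC control), ESCs with auxin for 48 h (ESC auxin), NPCs on day 4 of differentiation without auxin (NPC control), and NPCs on day 4 of a differentiation done with auxin (NPC auxin). Each group had 2 samples and 1 deposited list per caller, so no value here has a replicate error and no test of the conditions could be made. Intervals are 95% intervals for counting error and treat loops as independent. The 3133 loops formed 2487 groups of adjacent bin pairs, of which 2068 held a single loop and the largest held 11, so the intervals are likely too narrow. The sources used here do not say whether the line is a single clone.

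H3K4me3 is the histone mark of active and poised promoters. CTCF is a DNA-binding protein that halts cohesin as cohesin extrudes DNA, and many loops between distant sites form in this way. In ESCs, promoters of many developmental regulators carry H3K4me3 together with the Polycomb mark H3K27me3, and promoters bound by Polycomb complexes are known to contact each other.

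Of the 20 promoter bins with the most of these loops, the first 4 belonged to Sgk1, a kinase induced by serum and glucocorticoids, Rfx4, a transcription factor of the neural tube, Tha1, a threonine aldolase, and Neurog3, the basic helix-loop-helix factor of the endocrine pancreas. The 250 bases before their annotated starts are printed 5′ to 3′ on the gene's strand, from RefSeq on GRCm38.p6, the assembly of mm10. CpG dinucleotides are in capitals, and the stretches show how unlike these 4 promoters were in sequence.
Sgk1, chr10:21985854-21986103, plus strand: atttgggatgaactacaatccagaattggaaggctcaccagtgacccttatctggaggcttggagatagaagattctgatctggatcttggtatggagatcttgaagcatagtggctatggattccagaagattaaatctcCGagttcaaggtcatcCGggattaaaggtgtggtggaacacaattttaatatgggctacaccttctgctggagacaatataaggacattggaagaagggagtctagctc
Rfx4, chr10:84755798-84756047, plus strand: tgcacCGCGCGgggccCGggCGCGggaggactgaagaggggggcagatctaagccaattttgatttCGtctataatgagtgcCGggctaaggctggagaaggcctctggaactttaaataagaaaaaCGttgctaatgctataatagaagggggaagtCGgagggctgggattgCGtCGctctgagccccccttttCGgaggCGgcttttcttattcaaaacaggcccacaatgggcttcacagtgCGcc
Tha1, chr11:117873527-117873776, minus strand: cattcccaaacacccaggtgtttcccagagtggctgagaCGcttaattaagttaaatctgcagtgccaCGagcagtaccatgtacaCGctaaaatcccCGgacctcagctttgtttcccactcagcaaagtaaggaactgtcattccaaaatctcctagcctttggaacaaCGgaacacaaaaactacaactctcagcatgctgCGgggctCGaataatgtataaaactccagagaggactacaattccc
Neurog3, chr10:62132840-62133089, plus strand: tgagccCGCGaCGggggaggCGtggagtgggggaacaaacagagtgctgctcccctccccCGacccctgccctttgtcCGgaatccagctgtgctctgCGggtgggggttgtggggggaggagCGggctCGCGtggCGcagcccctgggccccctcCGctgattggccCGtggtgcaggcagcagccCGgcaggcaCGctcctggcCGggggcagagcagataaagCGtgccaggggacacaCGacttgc
The Sgk1 stretch held 2 CpGs and 43.6% G and C, the Tha1 stretch 7 CpGs and 46.4%, the Rfx4 stretch 15 CpGs and 54.8%, and the Neurog3 stretch 18 CpGs and 71.2%. Among 1492 matched promoters in bins with one of the loops, the median was 19 CpGs in a window of 250 bases before to 50 bases after the start, and it was 14 over 20085 protein-coding promoters on autosomes. The quartiles were 9 and 27 against 4 and 25, so the middle ranges overlapped widely.

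4 motifs were searched in that window on both strands. The core letters of the CTCF motif were in 2.95% of the 1492 promoters and 2.39% of all, and the letters AAGATGGC, a YY1-type site, were in 3.35% and 3.06%. The octamer ATGCAAAT was in 1.61% and 1.67%. The ESRRB-type letters TCAAGGTCA were in 6 of the 1492 (0.402%) and in 0.339% of all, and the Sgk1 promoter was one of the 6. For each motif the interval of the first share included the second, and a match is a description of the letters, not a bound site.

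The name ESC-specific held for exact bin pairs more than for the regions around them. A MAPS loop of either NPC list lay within 1 bin at both anchors for 1930 of the 3133 loops (61.6%, interval 59.9 to 63.3), and within 2 bins for 2365 (75.5%). Over all 26083 ESC control loops in neither NPC list the share within 1 bin was 50.2%. The loops are therefore called ESC-list loops here, by their rule. FitHiChIP, the second caller, listed 1034 of them (33.0%) in the control list of ESCs and 821 (26.2%) in their auxin list. It listed 82 (2.62%) in the control list of NPCs and 69 in their auxin list. It listed 507 (16.2%) in both ESC lists and neither NPC list. For the 5954 loops that MAPS called in all 4 lists, the FitHiChIP shares were 64.0%, 48.0%, 71.1% and 45.5% in the same order. At the 70 ESC-list loops in both FitHiChIP control lists, contacts were scaled to the list totals. Their median log2 ratio of NPC to ESC was -0.13 (interval -0.29 to 0.01), and 43 of the 70 were lower in NPCs. Kept loops of the MAPS NPC control list that were in both FitHiChIP control lists had a median of 0.16 (interval 0.14 to 0.18). Of these 4339 loops, chosen for a call in NPCs, 1654 were lower in NPCs.

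Some of the ESC-list loops lay close to the caller's limits, which were 12 contacts, a ratio of 2.00 to the expected background and an FDR of 0.01. The FDR was above 0.005 for 295 loops in the control list and 441 in the auxin list, and the ratio was under 2.2 for 371 and 423. Just outside the rule, 3892 kept loops were in exactly 1 NPC list, with a median there of 34 contacts and a ratio of 2.97, and 400 of them had a ratio under 2.2.

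Many of the ESC-list loops started from an ESC peak bin that the NPC lists did not mark. A peak bin is a bin in which the authors' lists mark an H3K4me3 peak, and each listed loop needs one at an anchor. The 2 lists of a cell type use the same marks, so the marks show nothing about H3K4me3 after auxin. An ESC peak bin not marked in NPCs stood at an anchor of 1020 ESC-list loops (32.6%, interval 30.9 to 34.2). Over all ESC control loops this share was 14.7%, among the 22950 loops in ESC control alone it was 22.3%, and among loops called in all 4 lists it was 8.35%. The last class had to have an anchor marked in NPCs, since it was called there, so part of this gap follows from the rule. By bins, 572 of the 2621 ESC-marked anchors with a known NPC mark (21.8%) were not marked in NPCs. This was against 12.8% over all ESC control anchors and 15.1% for the loops in ESC control alone. Anchors in no NPC list are left out of these shares. They were 198 of 2819 ESC-marked anchors of the ESC-list loops and 1381 of 12004 for the loops in ESC control alone. The share by loops was above that of the loops in ESC control alone on 18 of 19 autosomes. The exception was chromosome 19, with 3.90% against 16.2%.

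Most ESC-list loops still had an anchor marked in NPCs. At least 1 anchor was marked in NPCs for 2150 loops (68.6%, interval 67.0 to 70.2), so those pairs could have been listed there. No anchor was marked for 698 (22.3%), and a further 285 (9.10%) had no marked anchor and an anchor that is in no NPC list. Of the 11996 kept loops with an anchor marked in NPCs, 17.9% were in neither NPC list. Most of the peak anchors also made other loops in NPCs. Of 2819 ESC-marked anchor bins, 2446 had an NPC control loop and 263 had none in either NPC list, while 692 had more loops in NPC control than in ESC control and 1819 (64.5%) had fewer. The anchors were chosen for loops absent from the NPC lists, which favours fewer. Among all 6872 ESC-marked anchors of kept loops, 41.0% had fewer.

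**Figure D1:**
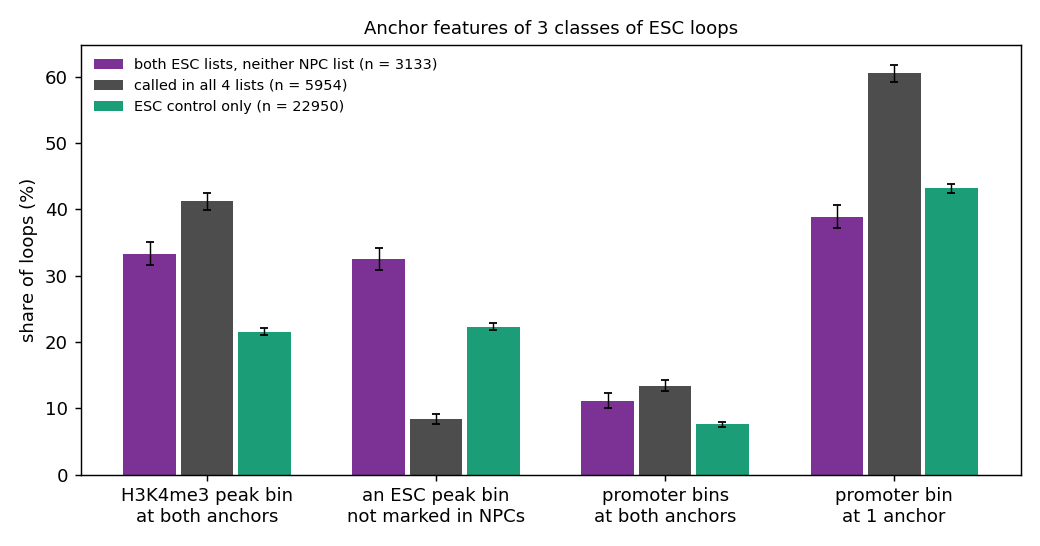
Share of loops (%, vertical axis) with 4 anchor features in ESC-list loops and 2 other classes of ESC loops, with exact 95% intervals as error bars. An ESC peak bin not marked in NPCs was at 32.6% of the ESC-list loops, 8.35% of the loops called in all 4 lists and 22.3% of the loops in ESC control alone.

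Peak bins stood at both anchors of 1044 ESC-list loops (33.3%), between the 41.2% of the loops called in all 4 lists and the 21.5% of the loops in ESC control alone, and against 26.4% over all ESC control loops. The share was below that of the loops called in all 4 lists on 17 of 19 autosomes and above that of the ESC control-only loops on 19 of 19. It differed with distance. Of the ESC-list loops at 20 to 90 kb, 20.4% had both anchors marked, against 46.5% of the loops called in all 4 lists. At 500 to 1000 kb the shares were 49.6% and 48.1%. The distance itself was alike in the 3 classes, with medians of 230, 230 and 220 kb, and the quartiles of the ESC-list loops were 150 and 330 kb. They made up from 18.4% of the kept loops on chromosome 12 to 30.8% on chromosome 18, and numbered from 52 on chromosome 14 to 379 on chromosome 11.

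Promoters were less common at these anchors than at loops shared by all 4 lists. A promoter bin is the bin of a protein-coding gene's annotated start or, where the reference gives none, of a gene end that a list marks as a peak bin. Both anchors were promoter bins in 348 ESC-list loops (11.1%), against 13.4% of the loops called in all 4 lists, 7.56% of the ESC control-only loops and 9.17% of all ESC control loops. A single anchor was a promoter bin in 38.9%, against 60.5% and 43.2%.

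The caller's short-range reads give a second measure of the pull-down at each anchor. They were compared as the log2 ratio of NPC control to ESC control, minus its median over bins without a peak. At anchors of ESC-list loops marked in both cell types the median was 0.36 (1911 bins). At the 535 anchors marked in ESCs and not in NPCs it was -0.23, and 450 of them lay below 0. At 1212 anchors marked in neither cell type it was -0.12. The medians were 0.47, -0.19 and -0.04 for the loops called in all 4 lists and 0.41, -0.20 and -0.04 for the ESC control-only loops. Only bins present in both lists have a value, and bins are shared between classes. For ESC auxin over ESC control the 3 medians of the ESC-list loops were -0.11, -0.03 and -0.01.

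**Figure D2:**
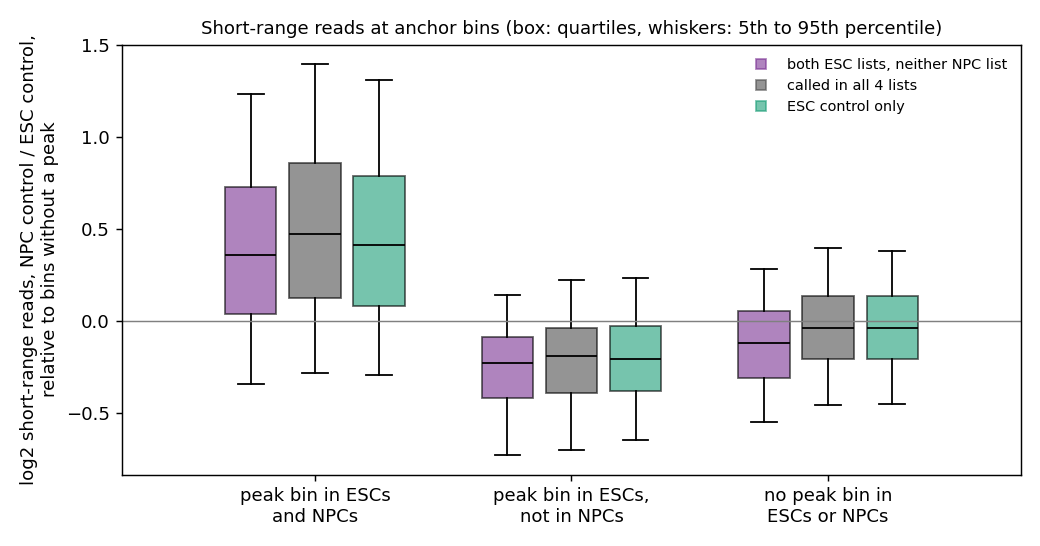
Log2 ratio of short-range reads at anchor bins, NPC control over ESC control, relative to bins without a peak (vertical axis), by the marks of the bin and the class of loop. Boxes are quartiles with the median, and whiskers run from the 5th to the 95th percentile. The anchors of ESC-list loops marked only in ESCs had a median of -0.23.

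Contacts at the ESC-list loops, which had to pass the caller's limits in both ESC lists, were nearly the same with and without auxin. In ESC control the contacts ran from 12 through a median of 28 to 503, and in ESC auxin from 12 through 28 to 421. The samples were bulk, so fewer cells with a contact and fewer contacts per cell cannot be told apart. The totals of contacts, derived from the FitHiChIP lists and not from MAPS, were 47519917 in ESC control and 48307867 in ESC auxin. The loops called in all 4 lists had medians of 36 and 32, and the ESC control-only loops had 23 in ESC control. The median ratio to the expected background was 2.85 in ESC control and 2.72 in ESC auxin, while the loops called in all 4 lists had 3.46 in ESC control.

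The median log2 ratio of contacts, auxin over control, was 0 (quartiles -0.23 and 0.17), and it was -0.16 for the loops called in all 4 lists. Contacts were higher in auxin at 1372 ESC-list loops (43.8%) and lower at 1512, while 35.4% of all kept loops and 31.9% of those called in all 4 lists were higher. The 704 kept loops in the NPC auxin list alone lay further that way, with 54.8% higher and a median of 0.07. The gap was also there within classes of contacts. By mean contacts of 12 to under 20, 20 to under 30, 30 to under 50 and 50 or more, the medians of the ESC-list loops were 0.07, 0, -0.08 and -0.08, and those of the loops called in all 4 lists were 0, -0.07, -0.19 and -0.29. A loop had to pass the caller's limits in both ESC lists, so loops that fell below them with auxin are not in these counts. A loop near the limit of 2.00 for the ratio to background drops out after a smaller loss than one far above it. In ESC control the lower quartile of that ratio was 2.41 for the ESC-list loops and 2.78 for the loops called in all 4 lists. The part of this limit in the gap was not tested. The interval of the ratio lay above 0 for 23 ESC-list loops and below 0 for 130 and included 0 for 2980. Over all kept loops 0.855% lay above and 10.6% below.

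**Figure D3:**
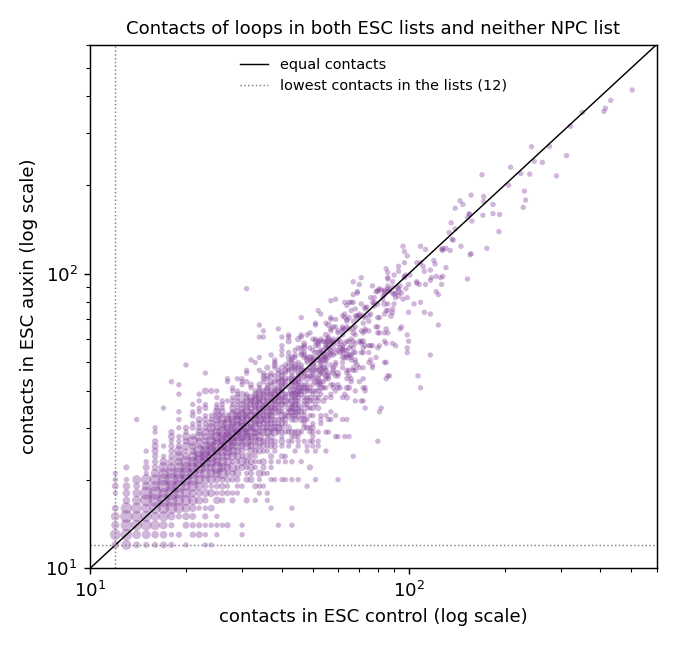
Contacts of each of the 3133 ESC-list loops in ESC control (horizontal, log scale) and ESC auxin (vertical, log scale), where larger points stand for several loops with the same values. The dotted lines mark the lowest listed contacts, 12, and the points lie around the line of equal contacts, with 1372 above it and 1512 below it.

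Loops between promoters joined several pairs of developmental regulators. Those named here are among the 10 with the most ESC control contacts of the 348. Nkx2-1, a homeobox gene of ventral forebrain, lung and thyroid, and Pax9, a paired box gene of pharyngeal pouch and tooth, were joined over 160 kb by 209 contacts in ESC control and 230 in ESC auxin, at ratios to background of 4.41 and 5.00. The homeobox genes Tlx1, needed for the spleen, and Lbx1, of migrating muscle precursors, had 192 and 139 contacts over 80 kb. The log2 ratio there was -0.47 (interval -0.79 to -0.14), and the NPC lists of neither caller held the pair.

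Gsx2, a homeobox gene of the ventral telencephalon, and Pdgfra, a PDGF receptor, had 184 and 172 contacts, and FitHiChIP also listed this pair in NPC auxin with 168. Nkx2-2, of ventral neural tube, and Pax1, of sclerotome, had 131 and 122 contacts over 180 kb, with ratios of 5.24 and 4.96. The zinc finger gene Sp5 and Gad1, which encodes the enzyme that makes GABA, had 136 and 149. For these 3 pairs the interval of the log2 ratio included 0. Tdgf1, the Nodal co-receptor Cripto, and Rtp3 had 134 and 138 contacts over 40 kb, and FitHiChIP listed the pair in none of its lists. Others of the 10 were Lyl1 with Nfix, with 171 and 158 contacts, Pik3c2b with Ppp1r15b, with 124 and 85, and Eml2 with Ppm1n and Rtn2, with 124 and 67. FitHiChIP listed all 3 of them in NPC control.

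The widest differences between auxin and control among these 348 loops were mostly at low contacts. Nkx2-9 and Foxa1, a homeobox and a forkhead gene 930 kb apart, had 17 contacts in control and 35 in auxin, a log2 ratio of 1.04 (interval 0.17 to 1.97). Gtf2a1 and Sel1l had 23 and 40 (0.80, interval 0.02 to 1.61). FitHiChIP did not list Gtf2a1 with Sel1l in ESC control, but listed it in NPC control with 40 contacts and NPC auxin with 41. It listed Nkx2-9 with Foxa1 in NPC auxin with 23. For Tspan32 with Cdkn1c (21 and 36), Cd81 with Cdkn1c (22 and 37) and Olfr522 with Zfp941 (13 and 22) the interval included 0. At the other end were the pair of Eml2 with Ppm1n and Rtn2 (-0.89), Lrp2 with Gad1 (37 and 20 contacts, -0.89), Foxl2 with Sox14 (47 and 27, -0.80) and Barx1 with Card19 (41 and 24, -0.77), with intervals below 0. The interval of Gm52787 with Rad9b and Vps29 (22 and 13, -0.76) included 0. These pairs were picked as extremes, so an interval that leaves out 0 follows in part from the choice.

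Most anchors held a single ESC-list loop. Of 2819 ESC-marked anchor bins, 2024 had 1 ESC-list loop, 506 had 2, 224 had 3 or 4 and 65 had 5 or more. The share of these anchors not marked in NPCs was 17.8%, 26.5%, 35.7% and 58.7% in that order, over those with a known NPC mark, and the last rests on 37 of 63 bins. This order is partly built in by the rule, since a pair with no peak bin in NPCs could not be listed there. Over all kept loops it was not seen: anchors with 1, 2, 3 or 4, and 5 or more kept loops were not marked in NPCs in 14.2%, 13.0%, 12.4% and 8.90% of cases. A protein-coding promoter was in 49.0%, 38.5%, 42.0% and 32.3% of the anchors with 1, 2, 3 or 4, and 5 or more ESC-list loops.

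Among the 20 anchors with the most ESC-list loops, 13 were not marked in NPCs, 14 had no protein-coding promoter and 17 had all partners on one side. The first was chr18:76380001-76390000, with 14 such loops. Its MAPS loops numbered 30 and 26 in ESCs without and with auxin, and 8 and 7 in NPCs. Its 14 loops held 309 contacts in control and 306 in auxin. Of the 14, 5 had fewer contacts in auxin. At 500, 510 and 520 kb the contacts were 24, 40 and 26 in control and 12, 20 and 18 in auxin. At 170, 250 and 260 kb they were 25, 19 and 24 in control and 34, 27 and 27 in auxin. These distances were picked after their values were seen, and the differences were not tested.

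The second anchor, chr15:83040001-83050000, had 13 of the loops and 31, 21, 4 and 4 MAPS loops in the same order (ESC control and auxin, then NPC control and auxin). Its short-range reads were 518, 757, 294 and 332. The 13 loops held 551 contacts in control and 405 in auxin, and 11 of them had fewer in auxin. The third, chr11:84790001-84800000, also had 13, with 279 and 280 contacts and 18, 19, 3 and 3 MAPS loops. Next were chr4:148910001-148920000, inside Casz1, a zinc finger gene, and chr13:51830001-51840000, with 9 each.

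At the promoter of Sgk1, which is not marked as a peak bin in NPCs, MAPS listed 17 loops in ESCs without auxin, 11 with auxin and 1 in each NPC list. The 8 ESC-list loops reached 60 to 280 kb to 1 side. From the farthest to the nearest, their contacts were 26, 29, 22, 40, 31, 58, 44 and 54 in ESC control and 21, 33, 25, 43, 31, 56, 47 and 55 in ESC auxin. No pair differed between the lists by more than 5 contacts. At Rfx4, marked in both cell types, the MAPS loops numbered 15, 8, 2 and 2. Its 8 ESC-list loops reached 150 to 430 kb to 1 side, with 31 to 55 contacts in control and 30 to 57 in auxin, and all 8 loops of its ESC auxin list were among them. The short-range reads at Rfx4, not scaled for depth, were 747 in ESC control and 1239 in NPC control, while its loops were fewer in NPCs. Bins without a peak also had more reads in NPC control, with a median log2 ratio of 0.52, so part of the rise at Rfx4 was shared by them.

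**Figure D4:**
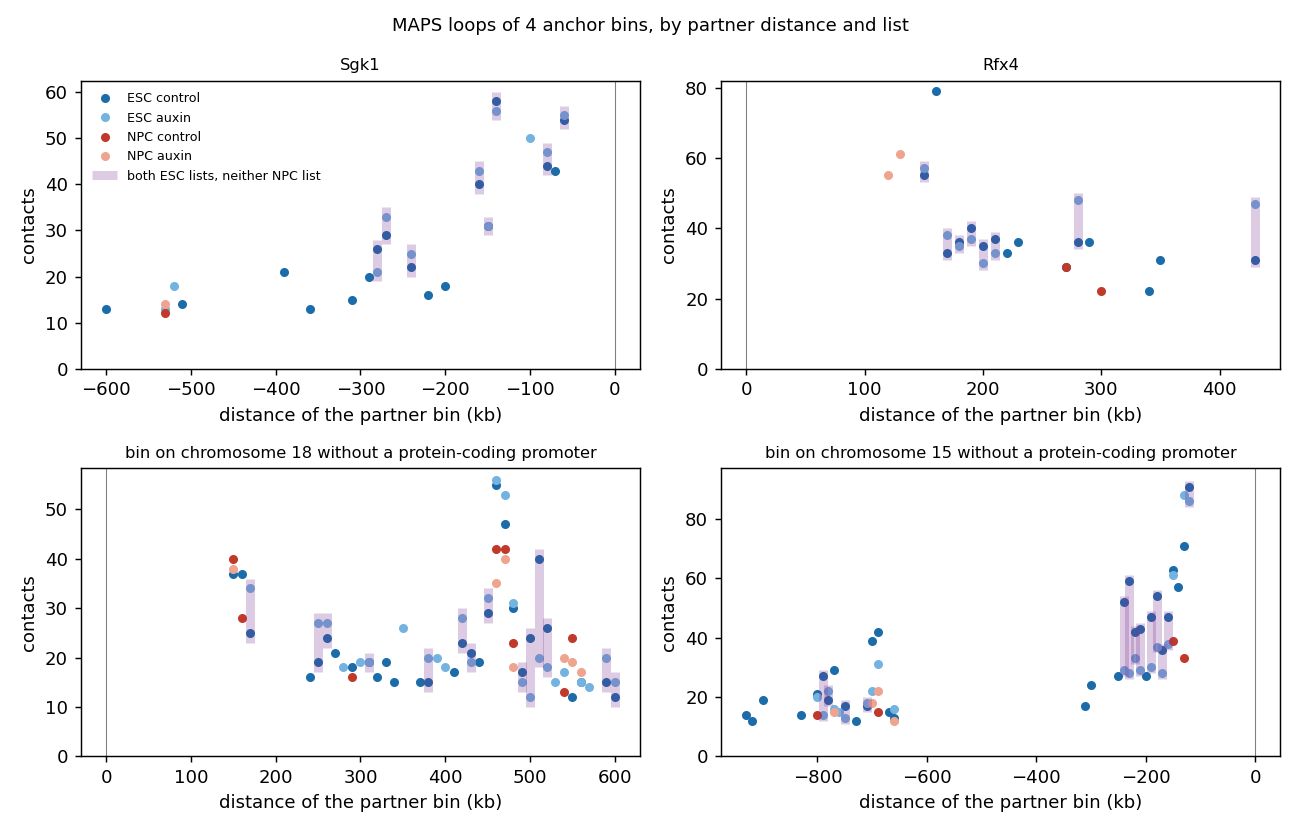
Contacts of MAPS loops (vertical axis) against the distance of the partner bin in kb (horizontal axis) for the 2 promoter bins Sgk1 and Rfx4 and the 2 anchors with the most ESC-list loops. Points are loops coloured by list, and bars mark the loops in both ESC lists and neither NPC list. By the rule, NPC loops stood only at partner bins without a bar, with 1 in each NPC list at Sgk1.

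Tha1 had 8 ESC-list loops on both sides, with 24, 19, 14 and 6 MAPS loops, and Neurog3 had 7 on 1 side, with 10, 13, 4 and 4. Myc, the growth regulator, had 6 within 70 to 120 kb, with 58 to 137 contacts in control and 56 to 131 in auxin. Its promoter had far more loops in NPCs (38, 26, 83 and 54), so its ESC-list loops were a small set beside those listed in NPCs. Nkx2-1 was the other promoter of the 20 with more loops in NPC control than in ESC control. Pax2, a paired box gene of kidney and midbrain, was in 2 neighbouring bins with 12 ESC-list loops in all, and Tlx1 had 6. Others of the 20 were the patterning genes Uncx, Pitx1 and Lhx5, the Hedgehog effector Gli1, the ligand Wnt3, and Adam33, Wscd2, Ston2, Nme1, Zfp286 and Dab2ip. Of the 20 bins, 4 were not marked in NPCs (Sgk1, Wscd2, Ston2 and Dab2ip), and 18 had fewer loops in NPC control than in ESC control, which the ranking favours. Of 3915 promoter bins with any kept loop 31.7% had fewer.

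**Figure D5:**
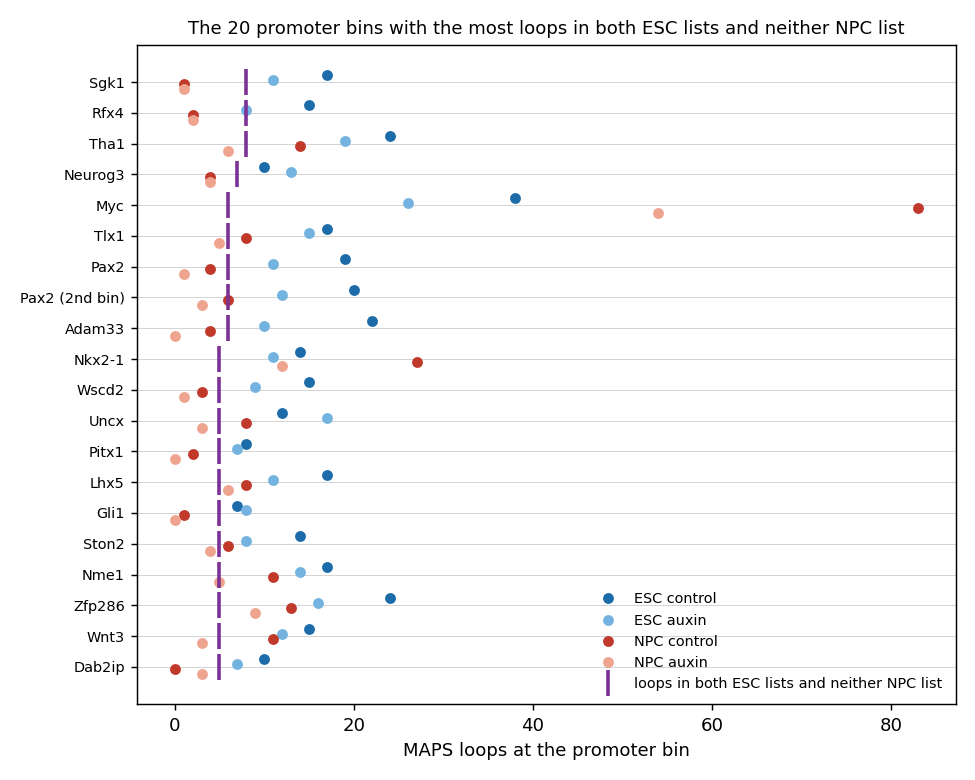
Number of MAPS loops (horizontal axis) in each of the 4 lists at the 20 promoter bins with the most ESC-list loops, where vertical bars give the number of ESC-list loops. Sgk1, Rfx4 and Tha1 had 8 each, and Myc and Nkx2-1 had more loops in NPC control than in ESC control.

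An ESC-list loop was at the promoter bin of 1592 of 19349 genes (8.23%), and of 35.7% of the 4463 genes with any kept loop. The lists of genes give counts beside these shares, and genes in 1 bin share their loops. In each list the median gene had 0 such loops.

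Of 27 genes of pluripotency 4 (14.8%) had one, among 11 with a kept loop, with 2 loops at Tdgf1 and 1 each at Sox2, the DNA methylation co-factor Dnmt3l and Dppa5a. Tdgf1 had 3 and 4 MAPS loops in the ESC lists and 0 in both NPC lists, while Sox2, a factor of both ESCs and neural progenitors, had 12, 13, 35 and 18. With FitHiChIP 8 of the 27 had one, and with neighbouring bins counted 9. None of 11 LIF pathway genes had one, and 1 of 16 FGF pathway genes did, Fgf5. Of 18 Nodal, TGF-beta and BMP genes 2 did, Tdgf1 and the activin receptor Acvr1b. Of 9 DNA methylation genes, Dnmt3l and the demethylase Tet3 did. None of 14 genes for CTCF and cohesin, 18 of the germline and early embryo, 8 of feeder fibroblasts and 15 housekeeping genes did. In that order 2, 0, 2 and 6 of them had a kept loop. The housekeeping count with an ESC-list loop depended on the caller, with 6 of 15 by FitHiChIP and 3 with neighbouring bins counted. Over all genes these settings gave 7.81% and 14.5%.

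Among regulators of development, 8 of 26 neural progenitor genes (30.8%) had an ESC-list loop, and 9 did with FitHiChIP. There were 4 loops each at Meis2, a homeobox co-factor, Pax6, the eye and forebrain regulator, and Nes, the intermediate filament nestin. Nes had 8, 7, 2 and 0 MAPS loops and Meis2 27, 14, 54 and 13, so these genes went both ways in NPC control. Of 17 Polycomb genes 5 (29.4%) did, among them Jarid2 with 2, and Epop and Bmi1 with 1 each. Of 16 mesoderm and endoderm genes 5 did, led by Cdx2 with 3 and Foxa2 with 2. Of 10 trophoblast genes 3 did, with 4 loops at Ascl2, 3 at Cdx2 and 2 at Gata3, and Ascl2 had 9, 4, 0 and 0 MAPS loops. Of 39 Hox genes 11 (28.2%) did, with 12 loops counted once per gene. Since 36 Hox genes had a kept loop, this was 11 of 36, beside the 35.7% over all genes with a kept loop. FitHiChIP gave 17 Hox genes. Of 20 cell cycle genes 5 did too, with 6 loops at Myc and 2 each at Mycn, Ccnd2 and Ccnd3. A kept loop was at 15 neural progenitor, 7 Polycomb, 9 mesoderm and endoderm, 7 trophoblast and 9 cell cycle genes of these lists.

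The cell types could not be checked by expression here, and the peak marks did not separate them. Promoters of 7 of 8 ESC markers were marked in ESCs and 7 in NPCs, and 7 of 8 neural progenitor markers were marked in both. The others had no known mark, since their bins were in no list of that cell type. The short-range reads, not scaled for depth, did not separate them cleanly either. The ESC markers Pou5f1 (786 in ESC control and 561 in NPC control), Nanog (563 and 421) and Dppa5a (232 and 180) were lower in NPCs. Klf4 (499 and 1367), Utf1 (439 and 605) and Zfp42 (651 and 761), also ESC markers, were higher. Bins without a peak rose too, by a median log2 ratio of 0.52, and the rises at Utf1 and Zfp42 were smaller than that. Every neural progenitor marker with both values was higher in NPCs, such as Sox1 (529 and 1908). So was every mesoderm and endoderm marker with both values, from Gata4 (154 and 199) to Gata6 (585 and 3271). The rise at Gata4 was smaller than that of the bins without a peak. Of 6 feeder fibroblast markers 4 were marked in each cell type, and the others had no known mark there. The part of these marks in the loop calls was not tested.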

How the data were processed

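H3K4me3 PLAC-seq was done in 14 samples, of which the 8 samples of 4 groups (2 per group) were used, and those with dCas9 were not analysed here. BWA, Picard and mm10 are named, without versions, in the submitters' processing notes. The sources used here do not say if the samples of a group were pooled.

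The deposited MAPS lists give, per the file headers, a contact count per bin pair, short-range read counts per bin, an expected signal, the ratio of count to expected, and an FDR, a p-value adjusted by the caller. The deposited FitHiChIP lists give a count, an expected signal, an expected fraction of all contacts and a q-value. The expected contacts divided by that fraction gave each list's total, from 47519917 to 59961568. All these values are the authors' own.

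Loops were matched on exact bins in Python 3.11.15 with pandas 2.3.3, and the counting of shares, medians and order-statistic intervals was checked on simulated data. Shares carry exact Clopper-Pearson intervals from scipy 1.17.1, and contact ratios carry exact binomial intervals, uncorrected for totals. Peak marks from both callers were the same at all 65356 bins they share. FDR and ratio served only to describe or filter loops within a list.

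Genes and sequences came from RefSeq tables of GRCm38.p6. Of 20665 protein-coding genes, 16457 had an annotated start, 2892 a marked end and 1316 no promoter bin. Named genes were the 20 promoter bins with the most ESC-list loops (ties by contacts), the 10 loops between promoters with the most ESC control contacts, the 5 highest and 5 lowest of them by log2 ratio, and up to 3 genes per list; 1 item among them is not reported here. Other names, and the listed genes past the third, were chosen after their values were seen. Members and lists were chosen with earlier results of these data known. Alternatives were the other caller, tolerance of 1 bin, stricter limits and other scalings.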

Additional observations from a re-analysis of the deposited data

How the results depend on the processing

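The count of ESC-list loops was 3133, and 1544 at an FDR under 0.001. Their share of kept loops, 24.1%, was 31.4% with FitHiChIP, 10.1% with a tolerance of 1 bin, 19.4% at the stricter FDR, 22.2% with at least 20 contacts and 17.9% among loops with an anchor marked in NPCs. The median distance of 230 kb was 700 kb with FitHiChIP, 420 kb with FitHiChIP restricted to autosomes and 1000 kb, 195 kb at the stricter FDR and 190 kb with 20 contacts. The alternatives with NPC-marked anchors and with restricted FitHiChIP were chosen after seeing the data. Both anchors were marked in 33.3% of loops, and in 30.2%, 40.0% and 36.8% with a tolerance of 1 bin, the stricter FDR and 20 contacts. An ESC peak bin not marked in NPCs was at 32.6%, and at 30.7% with the tolerance, 30.04% with 1 loop per cluster and 30.8% with 20 contacts. Promoters at both anchors were in 11.1%, and in 33.3% with neighbouring bins counted. The median log2 ratio of 0 was -0.024 after scaling to totals, -0.047 over expected contacts, 0.056 with FitHiChIP and -0.043 with 20 contacts. An NPC loop within 1 bin was at 61.6%, and at 36.9% by FitHiChIP's NPC lists. Of 255 genes in the lists 43 had a loop, 81 with neighbouring bins and 65 with FitHiChIP. Of 30 alternatives for single lists of genes, 23 gave another count, 16 of them by over 1.5 times. No paired analysis was possible because each group has 1 list with no replicate columns. For the same reason no sample could be left out. The cause of each shift was not tested.

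Depth limits what single loops show: with a median of 28 contacts, the interval of the auxin ratio included 0 at 2980 of 3133 loops. A pair with no peak bin could not be listed.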

Other observations

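An imprinted stretch of chromosome 7, chr7:142900001-143800000, chosen after its values were seen, held 21 of the ESC-list loops among 58 kept loops. MAPS listed 154 loops there in ESCs without auxin and 85 with auxin, and 109 and 41 in NPCs. Of all kept loops, 24.1% were ESC-list loops. Nearly all of the 21 had a MAPS NPC loop within 1 bin at both anchors, beside 61.6% of all ESC-list loops. FitHiChIP listed few of the 21 in both ESC lists. The 21 loops held 16 to 44 contacts each in control and 17 to 38 in auxin, 549 and 557 in sum. Of these, 3 ended at the bin of Cdkn1c, the growth inhibitor p57, and started at Ascl2, a trophoblast regulator, Tspan32 and Cd81. Ascl2 and Cdkn1c, 500 kb apart, had 25 contacts in control and 33 in auxin, and the interval of the log2 ratio (-0.39 to 1.21) included 0. The lists do not separate the parental alleles.

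Gene families were also counted by their symbols, after the data were seen. Of 179 homeobox and paired box genes 71 (39.7%) had an ESC-list loop at the promoter bin, and 131 had a kept loop. Of 69 basic helix-loop-helix genes 18 did, of 17 Sox genes 6, of 19 Wnt ligands 4 and of 41 Fox genes 7. In the same order 34, 10, 8 and 20 had a kept loop, beside the 35.7% of all genes with a kept loop that had an ESC-list loop. Of 79 genes for cytoplasmic ribosomal proteins 6 did (7.59%), beside 8.23% of all genes, and 35 had a kept loop.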
